A study of Mus musculus with 9 samples.

Results

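The genes described here are 9 genes of glycolysis and its exit toward lactate or the mitochondrion, taken by symbol from a table of 23955 genes: Hk1, Hk2, Gpi1, Pfkl, Pfkp, Aldoa, Pgk1, Ldha and Pdk1. Each symbol matched 1 row, and all 9 genes had enough counts to be tested in every comparison. RNA was sequenced from 9 cultures of gut organoids, which are epithelial cells grown in a gel, in 3 groups of 3 biological replicates. MIN organoids were grown from APC-mutated gut tissue next to the tumors of APCmin/+ mice, and adenoma organoids from the adenomatous polyps of such mice. Sulindac organoids were adenoma organoids treated with sulindac, a non-steroidal anti-inflammatory drug (NSAID). All 3 groups therefore carry the APCmin/+ background and were cultured with Noggin, EGF, bFGF and R-spondin1. Neither wild-type organoids nor MIN organoids given sulindac were among the samples. The ages of the mice, the number of mice behind a culture, and the dose, duration and vehicle of the sulindac treatment of organoids are not given in the sources used here. Only epithelium is modelled, without stroma, vessels or immune cells.

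Glycolysis splits glucose into pyruvate in the cytosol and yields ATP, NADH and carbon for other pathways. Hexokinases trap glucose as glucose 6-phosphate, phosphofructokinase commits it to the pathway, and aldolase and phosphoglycerate kinase carry out later steps. Lactate dehydrogenase turns pyruvate into lactate, while pyruvate dehydrogenase kinases such as Pdk1 inhibit the complex that passes pyruvate to the mitochondrion. Many of these genes are known targets of the hypoxia-inducible factors (HIF) and of Myc, and a high rate of glycolysis with lactate release is a known trait of many tumors. Most steps have several isozymes encoded by separate genes, some of them typical of liver, kidney and small intestine (Pklr) and others more widely expressed (Aldoa, Pkm).

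Adenoma organoids did not show a common shift of the 9 genes against MIN. Hk1 was 1.89-fold higher in adenoma, Ldha was 1.58-fold lower and Pfkp was 1.51-fold lower, and the other 6 genes did not pass the threshold. After sulindac, Hk1 (1.92-fold), Aldoa (1.76-fold) and Pfkp (1.36-fold) were higher than in untreated adenoma and no gene was lower. Hk1 was the gene of the 9 that passed in all 3 comparisons, and it passed in every alternative fit, though not with an added minimum of 2-fold in the first 2 comparisons. The calls for Pfkp, Ldha and, after sulindac, Aldoa were lost in some fits with 1 library left out, as given with each gene. Their directions stayed the same in these fits. Calls over all genes were also fewer in most such fits. In sulindac over adenoma, 423 to 1403 genes were then higher, against 1078 with all libraries.

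Levels are in CPM, the usual unit of a gene's counts relative to its library total, here after TMM normalization, a rescaling that assumes most genes do not differ. The threshold was a false discovery rate (FDR) of 1% over all genes tested with edgeR's quasi-likelihood test, and every adjusted p below comes from that test. Between adenoma and MIN, 3 of the 9 genes passed, 1 higher and 2 lower, against 38.7% of the 13744 genes tested (18.5% higher, 20.1% lower). Between sulindac and adenoma, 3 of 9 passed, all higher, against 17.4% of 12962 genes (8.32% higher, 9.10% lower). Scaled by library size alone, the calls over all genes in that comparison split into 603 higher and 1983 lower, instead of 1078 and 1179, where the median over all genes stood at a log2 fold change of -0.18 in place of -0.01. The same setting put the median for adenoma over MIN at 0.125, so member values under it are to be read against these shifts. Between sulindac and MIN, 4 of 9 passed, 2 in each direction, against 49.7% of 13551 genes (23.0% higher, 26.8% lower). Against MIN, both for adenoma and for sulindac, the share among the 9 genes was thus close to the share among all genes. Each group serves in 2 of the 3 comparisons, so the comparisons are not independent of each other.

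Libraries held 30881206 to 48412477 counts, so that 3 counts, taken as the floor of detection, correspond to 0.0641 to 0.10 CPM (counting error only). The 9 genes together took 1.16% to 1.40% of all counts in MIN and adenoma libraries and 1.45% to 1.62% in sulindac libraries. MIN 3 and Adenoma 3 stood apart from the other replicates of their groups, with a chi-square per gene of 65.4 to 77.8 against 18.4 and 19.7 for the remaining pairs, while the sulindac libraries lay at 17.7 to 31.7. All 8 epithelial markers were abundant, with MIN libraries at a sum of 6025 to 8675 CPM, adenoma libraries at 3556 to 4647 CPM and sulindac libraries at 4866 to 5823 CPM. In adenoma, 6 of the 8 were lower than in MIN and none higher, against 20.1% and 18.5% of all genes. Epcam (log2 fold change -0.52, adjusted p = 0.0187) and Krt18 (0.74, adjusted p = 0.0249) did not pass. Krt18 went the other way, with every adenoma library above MIN. It was higher after sulindac than in MIN (1.16, adjusted p = 0.000442). Both genes are named after their values were seen. The 7 enterocyte markers, genes of absorptive cells such as Sis and Alpi, were all lower in adenoma, with sums of 2632 to 3972 CPM in the MIN libraries and 48.8 to 81.4 CPM in the adenoma libraries, and their sum lay at 11.5 to 28.8 CPM after sulindac. Markers of other cell types were low. The 7 leukocyte markers summed to at most 0.365 CPM, the 10 stromal markers to at most 4.39 CPM, the 5 endothelial markers to at most 0.758 CPM and the 6 red cell markers to at most 0.365 CPM. Of the stromal markers, Pdgfrb was at least 41.1-fold lower in adenoma than MIN and Des at least 6.63-fold higher, against the floor of 3 counts. In bulk organoids, fewer cells of a type and less RNA per cell cannot be told apart, and the part of the enterocyte difference in the results below was not tested.

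**Figure D1:**
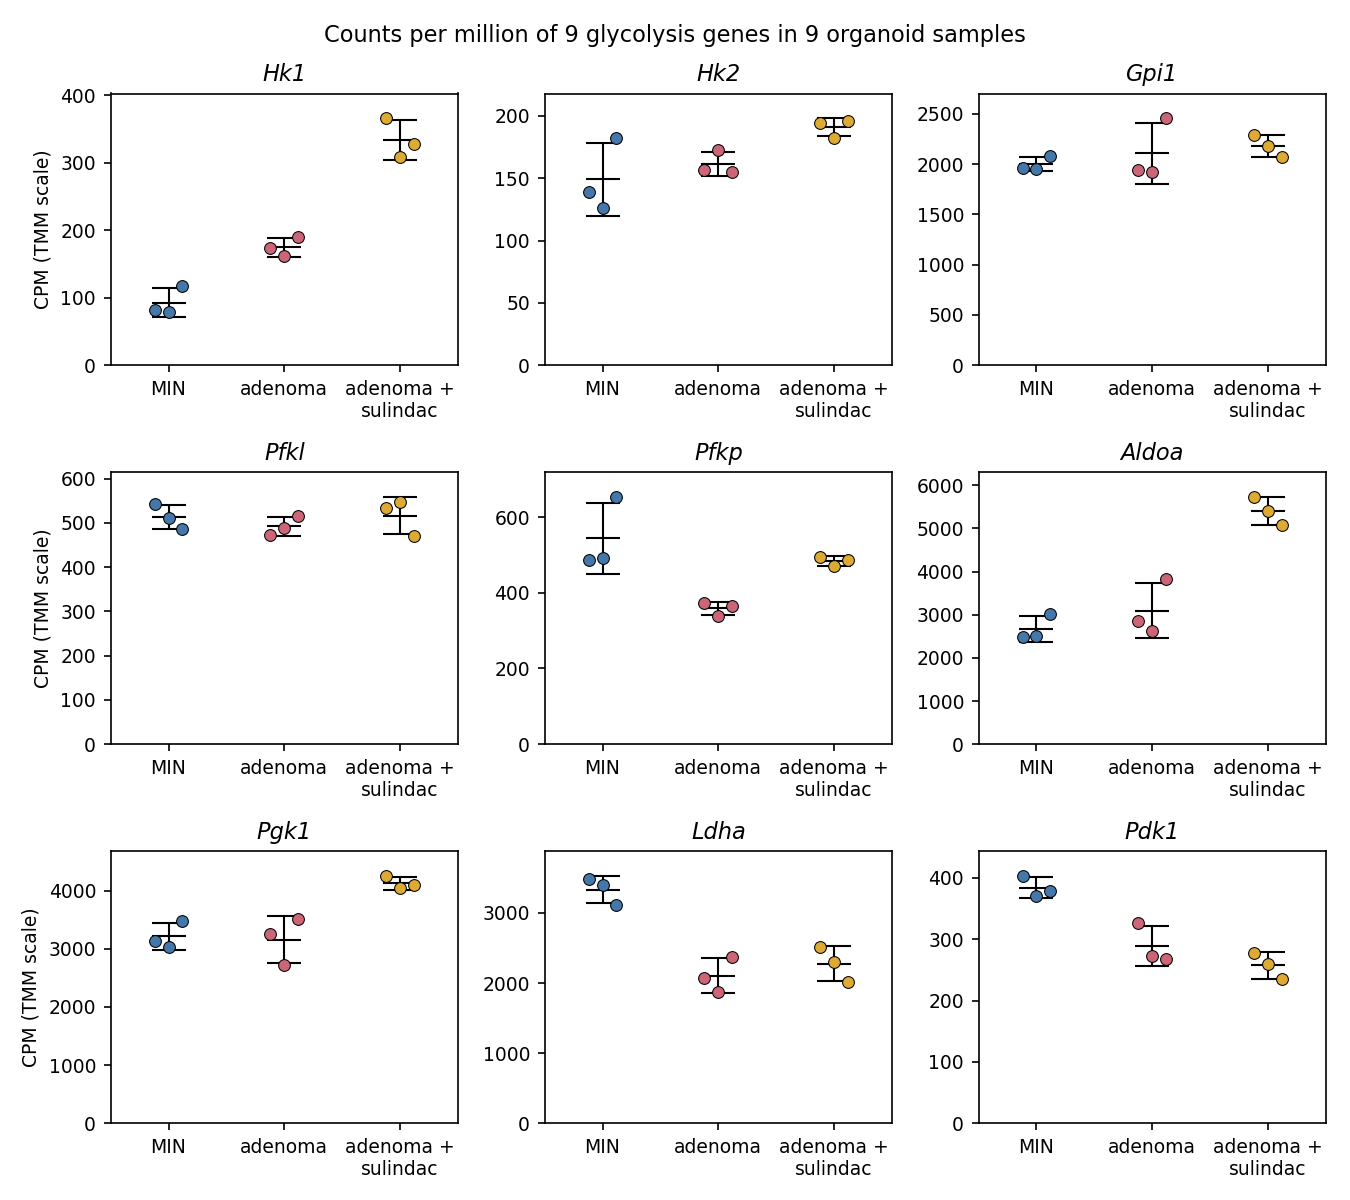
CPM (TMM scale, linear axes from 0) of the 9 glycolysis genes, 1 point per library, with the mean and SD of the 3 libraries of each group as bars. Hk1 rose in 2 steps without overlap between groups, Aldoa lay at 5082 to 5720 CPM in the sulindac libraries and at most 3817 CPM elsewhere, and Pfkl and Gpi1 overlapped in all groups.

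To show what the regions before these genes look like, the 160 bases before the annotated start are printed for the 4 genes that passed in at least 1 of the first 2 comparisons, Hk1, Pfkp, Aldoa and Ldha, and for Hk2, the other hexokinase, and Pgk1, a later step, which passed in none. The sequences are RefSeq windows of GRCm38.p6, a later build than the mm9 that the submitters' processing notes name for the counts, and they were matched by symbol. Capitals mark the cores of the HIF binding site, ACGTG and GCGTG, on either strand (CACGT and CACGC on the other strand). Where RefSeq gives several starts, a window with a match was chosen. Lines give the gene and the region of the printed bases, read 5′ to 3′ on the gene's strand.
Hk1, chr10:62340422-62340581, minus strand: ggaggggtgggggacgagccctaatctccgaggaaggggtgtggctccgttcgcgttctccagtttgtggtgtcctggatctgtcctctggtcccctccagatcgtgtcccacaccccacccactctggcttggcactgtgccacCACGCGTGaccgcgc
Hk2, chr6:82774455-82774614, minus strand: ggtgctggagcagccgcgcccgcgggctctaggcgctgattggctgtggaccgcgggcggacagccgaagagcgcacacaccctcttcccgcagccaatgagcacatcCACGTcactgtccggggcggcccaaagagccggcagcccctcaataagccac
Pfkp, chr13:6648772-6648931, minus strand: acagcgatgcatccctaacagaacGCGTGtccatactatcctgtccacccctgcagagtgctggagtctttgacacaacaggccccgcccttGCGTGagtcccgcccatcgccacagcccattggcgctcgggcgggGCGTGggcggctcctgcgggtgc
Aldoa, chr7:126799255-126799414, minus strand: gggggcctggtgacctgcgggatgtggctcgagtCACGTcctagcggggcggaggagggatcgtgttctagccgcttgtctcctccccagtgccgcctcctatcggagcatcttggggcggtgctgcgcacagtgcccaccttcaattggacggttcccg
Pgk1, chrX:106186940-106187099, plus strand: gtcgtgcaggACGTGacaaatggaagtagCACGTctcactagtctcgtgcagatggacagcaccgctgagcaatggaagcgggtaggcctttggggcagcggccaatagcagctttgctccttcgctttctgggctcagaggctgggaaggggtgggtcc
Ldha, chr7:46845644-46845803, plus strand: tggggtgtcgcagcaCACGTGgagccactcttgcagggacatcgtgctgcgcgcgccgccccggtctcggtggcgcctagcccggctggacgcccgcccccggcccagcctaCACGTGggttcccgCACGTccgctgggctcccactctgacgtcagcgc

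The window searched covers 250 bases before and 50 bases after each start. ACGTG was present for 5 of the 9 genes, in 6 of their 14 windows, against 19.6% of the 32851 windows of all genes. Among the 6 are overlapping windows of Aldoa, which hold the same site at 126 and 202 bases before their starts. Shares over all genes were counted by window, not by gene. GCGTG was present for 5 of 9, also in 6 of the 14 windows, against 32.4%. At least 1 of the cores was found for 8 of the 9 genes (10 of their 14 windows), against 43.8% of all windows, and Gpi1 held none. The E-box CACGTG, a site that Myc can bind, contains ACGTG and was present in 7.15% of all windows. Of the 9 genes it was found in Ldha, at 145 and 48 bases before the start. Genes with several windows have more chances of a match, and a match is a description of letters, not a binding site.

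Hk1, a hexokinase that binds mitochondria and takes the first step of glycolysis, was at 82.2, 78.1 and 117.5 CPM in the MIN libraries 1 to 3. In adenoma it was at 173.3, 161.5 and 189.2 CPM, and after sulindac at 366, 307.9 and 327.6 CPM. The 3 groups did not overlap at any step. Adenoma over MIN gave a log2 fold change of 0.92 with a standard error of 0.17 (adjusted p = 0.00161), sulindac over adenoma one of 0.94 with 0.11 (adjusted p = 0.000621) and sulindac over MIN one of 1.85 with 0.16 (adjusted p = 1.99e-05). With each library left out in turn, these values stayed between 0.81 and 1.12, 0.87 and 1.01, and 1.74 and 2.05. Reads of Hk1 could be confused with few other transcripts, since 1.22% of its 50-base stretches also lie in its antisense neighbour Hk1os, which was itself at 0.481 to 1.07 CPM on average in the 3 groups.

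Hk2, the hexokinase best known as the inducible form in muscle and tumors, was at 138.9, 126.5 and 181.9 CPM in MIN, at 156.7, 172.3 and 154.9 CPM in adenoma and at 194.5, 182.5 and 195.7 CPM after sulindac. Adenoma and MIN overlapped, whereas every sulindac library lay above every other library, though Sulindac 2, at 182.5 CPM, was barely above MIN 3. None of its differences passed the threshold: the log2 fold changes were 0.12 (adjusted p = 0.533), 0.25 (adjusted p = 0.0738) and 0.35 (adjusted p = 0.0394) in the same order as for Hk1. Without MIN 3, its sulindac over MIN value was 0.52 and passed (adjusted p = 0.000539).

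The balance within the hexokinase pair can be read inside each library, where scaling cancels. The log2 ratio of Hk2 to Hk1 counts was 0.76, 0.70 and 0.63 in the MIN libraries, -0.14, 0.09 and -0.29 in adenoma and -0.91, -0.75 and -0.74 after sulindac, without overlap between groups. Its mean was 0.81 lower in adenoma than MIN and 0.69 lower after sulindac than in adenoma (two-sided exact permutation test, p = 0.1 for each, the smallest that 3 against 3 allows, and 0.15 after adjustment over 12 ratio tests).

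Gpi1, which converts glucose 6-phosphate to fructose 6-phosphate, was among the most even of the genes, with MIN libraries between 1956 and 2085 CPM, adenoma libraries between 1921 and 2458 CPM and sulindac libraries between 2076 and 2290 CPM. Groups overlapped in all comparisons and the log2 fold changes were 0.08, 0.06 and 0.12 (adjusted p = 0.695, 0.753 and 0.279). The adenoma range was set by Adenoma 3. Without it the first value was -0.05, and with library size alone the second was -0.10.

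Phosphofructokinase is encoded by Pfkl, Pfkp and Pfkm, named after liver, platelet and muscle. Pfkl was at 541.8, 511.9 and 486.5 CPM in MIN, 472.8, 489.2 and 515.7 CPM in adenoma and 533.5, 547 and 469.3 CPM after sulindac, and all groups overlapped. Its log2 fold changes were -0.06, 0.08 and 0.01, each with a standard error of 0.10 to 0.11 (adjusted p = 0.689, 0.599 and 0.967), and with library size alone all 3 changed sign (0.07, -0.09 and -0.02). Pfkp was at 486.7, 492 and 652.7 CPM in MIN, at 372.9, 338.9 and 364.5 CPM in adenoma and at 494.9, 470.1 and 485.7 CPM after sulindac. The adenoma libraries lay below all others, and the sulindac libraries lay within or just below the range of MIN.

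Pfkp was lower in adenoma than MIN by 0.60 on the log2 scale (standard error 0.14, adjusted p = 0.00736) and higher after sulindac than in adenoma by 0.44 (0.10, adjusted p = 0.00884). Sulindac over MIN gave -0.17 (0.12, adjusted p = 0.251). The first call was lost without MIN 2, MIN 3, Adenoma 1, Adenoma 2 or Adenoma 3 (adjusted p from 0.012 to 0.0288, log2 values from -0.67 to -0.45), and held without MIN 1. It was also lost with library size alone (-0.46, adjusted p = 0.0178). The second was lost without Adenoma 1, Adenoma 2, Sulindac 1, Sulindac 2 or Sulindac 3 (adjusted p from 0.0191 to 0.0416), and held without Adenoma 3, and with library size alone it was 0.27 (adjusted p = 0.0505). The log2 ratio of Pfkp to Pfkl counts was -0.34, -0.53 and -0.50 in the adenoma libraries, below MIN (-0.15, -0.06 and 0.42) and sulindac (-0.11, -0.22 and 0.05), which overlapped each other. Differences of -0.53 for adenoma over MIN and 0.36 for sulindac over adenoma each had p = 0.1, the smallest possible, in the exact permutation test (0.15 adjusted over the 12 ratio tests), and sulindac over MIN, at -0.16, had p = 0.6 (0.72 adjusted).

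Aldoa, the widely expressed aldolase, was at 2487, 2496 and 3012 CPM in MIN, at 2847, 2619 and 3817 CPM in adenoma and at 5720, 5412 and 5082 CPM after sulindac. MIN and adenoma overlapped, and all 3 sulindac libraries lay above every other library. The log2 fold change was 0.22 for adenoma over MIN (adjusted p = 0.346), 0.81 for sulindac over adenoma (standard error 0.16, adjusted p = 0.00585) and 1.02 for sulindac over MIN (0.11, adjusted p = 8.21e-05). Adenoma 3 was the highest of the untreated libraries, and without it the second value was 0.98 (adjusted p = 0.000435). Without any single one of the other 5 libraries the second value stayed between 0.71 and 0.86 but the call was lost (adjusted p from 0.0205 to 0.0273 without Adenoma 1, Adenoma 2, Sulindac 1, Sulindac 2 or Sulindac 3). The third call held with each library left out.

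Pgk1, phosphoglycerate kinase, makes the first ATP that the pathway returns. It was at 3138, 3024 and 3480 CPM in MIN, 3246, 2722 and 3507 CPM in adenoma and 4249, 4040 and 4091 CPM after sulindac. Every sulindac library lay above the others, but neither difference passed. On the log2 scale it was 0.40 over adenoma with a standard error of 0.13 (adjusted p = 0.0479), and 0.36 over MIN with 0.10 (adjusted p = 0.0122). Both passed when 1 library was left out, without Adenoma 3 (0.47, adjusted p = 0.00852) and without MIN 3 (0.41, adjusted p = 0.00532). They also passed in DESeq2's Wald test (adjusted p = 0.00313 over adenoma and 0.000352 over MIN). Each thus passed in 2 of 13 alternative fits. Adenoma over MIN was -0.02 (adjusted p = 0.914) and turned to 0.11 with library size alone. Its counts are uncertain, since 53.8% of its 50-base stretches also lie in its retrocopy Pgk1-rs7.

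Ldha, which reduces pyruvate to lactate, was at 3480, 3402 and 3115 CPM in MIN, 2072, 1873 and 2368 CPM in adenoma and 2513, 2302 and 2016 CPM after sulindac. All MIN libraries lay above all others, while adenoma and sulindac overlapped. It was lower in adenoma than MIN by 0.66 on the log2 scale (standard error 0.15, adjusted p = 0.00502) and lower after sulindac than in MIN by 0.55 (0.11, adjusted p = 0.00279). Sulindac over adenoma was 0.12 (adjusted p = 0.527) and -0.04 with library size alone. The first call was lost without MIN 1, MIN 2, Adenoma 1 or Adenoma 2 (adjusted p from 0.0218 to 0.0241, log2 values from -0.65 to -0.58), and the one against MIN after sulindac without MIN 2, Sulindac 2 or Sulindac 3 (adjusted p from 0.0113 to 0.0176, log2 values from -0.55 to -0.47). Ldhb, the other main subunit of the enzyme, had 6 to 22 counts per library in MIN and at most 2 in the others and was not tested.

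Pdk1, which phosphorylates and so inhibits pyruvate dehydrogenase, was at 402.8, 370.3 and 378.6 CPM in MIN, 326.6, 272.1 and 267.1 CPM in adenoma and 277.8, 259.7 and 234.8 CPM after sulindac. MIN lay above both other groups, which overlapped. Adenoma over MIN, at -0.41 on the log2 scale (standard error 0.12), missed the threshold (adjusted p = 0.0179). It passed in 2 of 13 alternative fits, that of all 9 libraries (adjusted p = 0.00788) and DESeq2's Wald test (adjusted p = 0.00321). With each library left out it did not pass (adjusted p from 0.0129 to 0.0652). Sulindac over adenoma gave -0.16 (0.12, adjusted p = 0.338). Sulindac over MIN, -0.58 (0.09, adjusted p = 0.000625), passed with each library left out. Pdk3, another kinase of the complex, was lower in adenoma than MIN by 0.69 (adjusted p = 0.00137) and lower again after sulindac by 0.69 (adjusted p = 0.00608, lost without Adenoma 1, Adenoma 2, Sulindac 1, Sulindac 2 or Sulindac 3 with adjusted p from 0.0172 to 0.0286). Pdk2 did not pass in any comparison (log2 values of -0.08, 0.24 and 0.15), and Pdk4 had at most 8 counts in a library and was not tested.

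The CPM ranges of adenoma and MIN did not overlap for 4 of the 9 genes, against 62.8% of all genes tested. Hk1 was the 1 higher gene (30.7% of all genes), and Pfkp, Ldha and Pdk1 were lower (32.2%). Sulindac and adenoma did not overlap for 5 of 9, against 48.9%. All 5 were higher after sulindac (22.9% of all genes) and none lower (26.0%). Sulindac and MIN did not overlap for 6 of 9, against 69.6%, with 4 higher (33.5% of all genes) and 2 lower (36.0%).

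**Figure D2:**
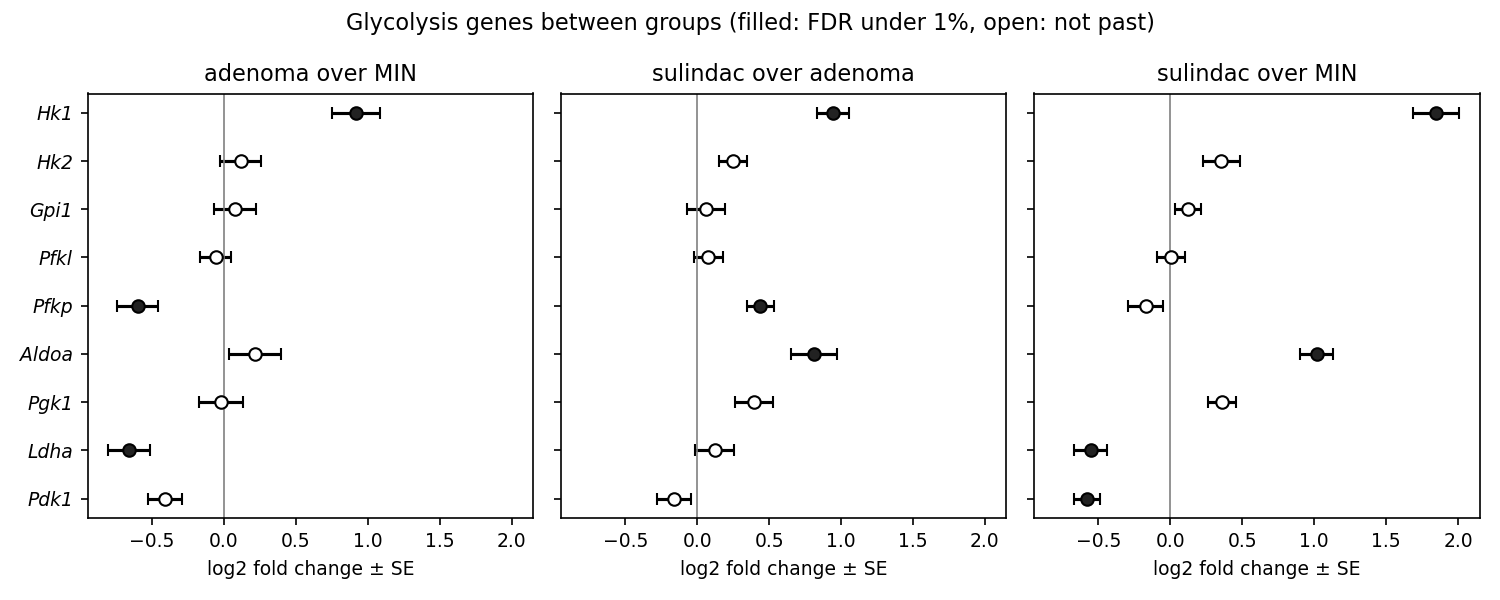
Log2 fold change with its standard error (horizontal bars) of the 9 glycolysis genes in the 3 comparisons, with filled circles for genes past an FDR of 1%. Hk1 lies right of 0 in all 3 panels (0.92, 0.94 and 1.85), Ldha and Pdk1 lie left of 0 against MIN, and Pfkp lies left of 0 in the first panel and right of 0 in the second.

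Read per kilobase (kb) of the main annotated transcript, which allows levels of different genes to be compared, the 9 genes spanned a wide range. At the top in MIN were Ldha at 1887 ± 109, Aldoa at 1764 ± 199 and Pgk1 at 1761 ± 130 CPM per kb (SD, n = 3), whose ranges overlapped. Gpi1 followed at 694 ± 24.8 CPM per kb. Pfkl (138 ± 7.43) and Pfkp (131 ± 22.8) overlapped in the middle, above Pdk1 at 74.0 ± 3.26, and Hk2 (27.0 ± 5.27) and Hk1 (24.0 ± 5.63) overlapped at the bottom, all in CPM per kb. In adenoma Aldoa (2048 ± 421) and Pgk1 (1731 ± 219) still overlapped, but Ldha (1192 ± 141) lay below both without overlap, and Hk1 (45.4 ± 3.61) lay above Hk2 (29.3 ± 1.73), in CPM per kb. After sulindac the order at the top was Aldoa (3577 ± 211), Pgk1 (2261 ± 59.8) and Ldha (1289 ± 141), with no overlap between neighbours. Hk1 then stood at 86.7 ± 7.67 CPM per kb, above Pdk1 at 49.6 ± 4.16 and Hk2 at 34.6 ± 1.32.

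Among Hk1, Hk2, Hk3 and Hkdc1, the share of Hk1 per kb was higher in each step from MIN to adenoma to sulindac, and Hkdc1 was nearly lost outside MIN. Hkdc1, a hexokinase-like gene that is the next protein-coding gene to Hk1 on chromosome 10, was at 146.7, 136.2 and 163.8 CPM in MIN and held 45.6% ± 2.85 of the summed CPM per kb of these 4 genes (SD, n = 3). In adenoma it had 4 or 5 counts per library (0.112 to 0.140 CPM) and after sulindac 8 to 15, so that its log2 fold change over MIN was -10.21 in adenoma (adjusted p = 1.36e-08) and -8.60 after sulindac (adjusted p = 9.24e-09). Hk1 held 25.5% ± 1.9 in MIN, 60.7% ± 3.19 in adenoma and 71.3% ± 1.31 after sulindac, and Hk2 held 28.8%, 39.2% and 28.6%. The sum of the 4 was 93.4 ± 14.8, 74.7 ± 2.26 and 121.4 ± 8.68 CPM per kb.

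No gene of the phosphofructokinase family was lost. The share of Pfkl was higher, and that of Pfkp lower, in every adenoma library than in all others. MIN and sulindac overlapped in both, and the shares were not tested. Pfkl held 49.1% ± 5.02 of its family per kb in MIN, 58.1% ± 1.74 in adenoma and 52.1% ± 2.16 after sulindac, with Pfkp at 46.4%, 38.1% and 43.9%. Pfkm, the muscle form, held 3.83% to 4.56% and was lower in adenoma than MIN by 0.56 on the log2 scale (adjusted p = 0.0031, lost without MIN 2 and without Adenoma 2, with adjusted p of 0.0193 and 0.0147). Pdk1 held 69.6% ± 2.29, 68.1% ± 4.99 and 65.8% ± 2.27 of its family. The share of Pdk2 was 17.4% ± 2.71, 21.5% ± 5.33 and 27.3% ± 2.76, with sulindac libraries above MIN without overlap, and that of Pdk3 was 12.9%, 10.4% and 6.94%. Of pyruvate kinase, Pklr, the liver and red cell form, held 9.13% ± 0.464 in MIN, 3.00% ± 0.045 in adenoma and 1.67% ± 0.118 after sulindac, and Pkm the rest.

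**Figure D3:**
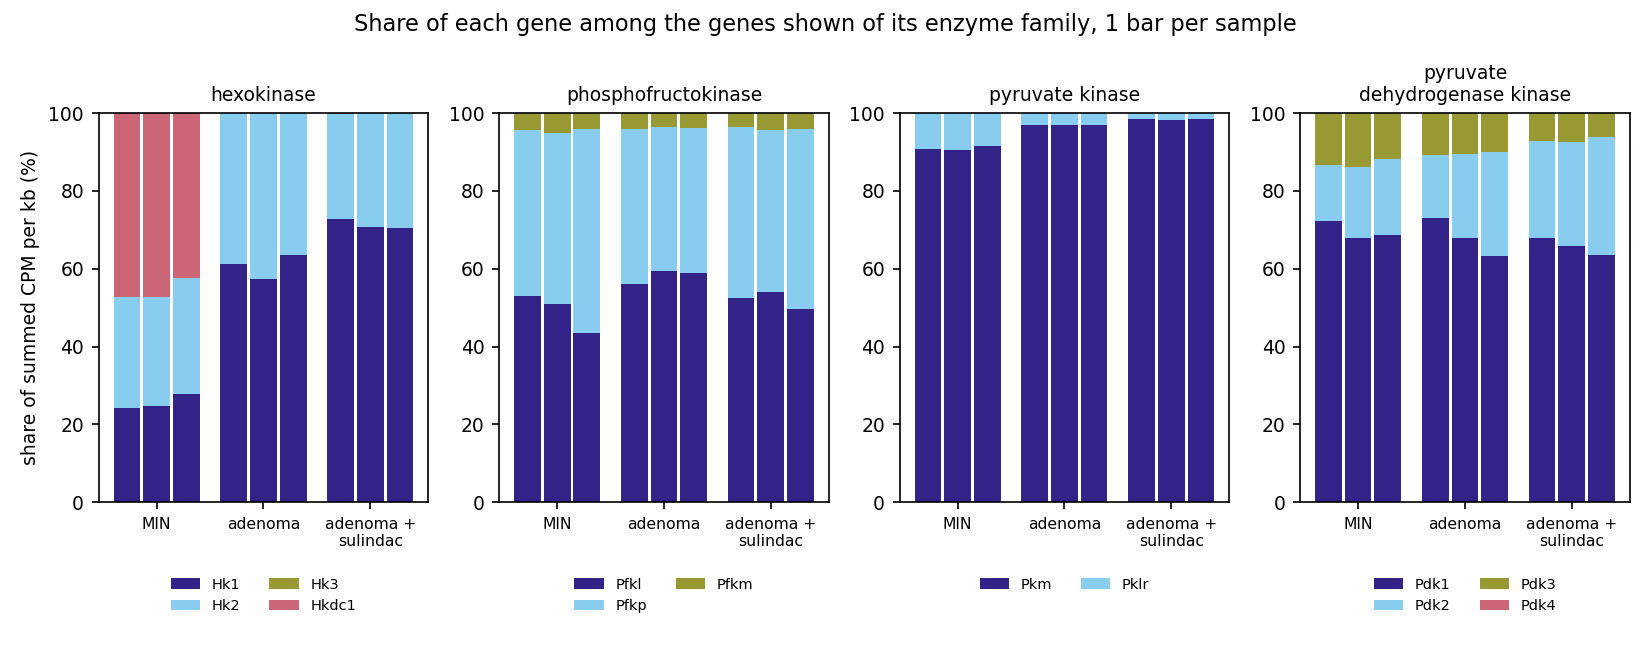
Share of each gene in the summed CPM per kb of the genes shown of its enzyme family (vertical axis, percent), 1 bar per library in order of replicate number, for 4 families. The Hkdc1 part of the bars is present in the MIN libraries (mean of 45.6%) and too small to see in the others, while the Pfkl part of the phosphofructokinase bars has means of 49.1%, 58.1% and 52.1%.

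The 16 other genes of glycolytic enzymes, the lists below included, were chosen with earlier results known. Of the 14 tested between adenoma and MIN, 4 were higher and 4 lower, where 18.5% and 20.1% of all genes were. The median log2 fold change was -0.17 against -0.01 over all genes. Higher were Aldoc, Pgam1, Eno2 and Eno3. Aldoc, the brain aldolase, was at 331.2 ± 61.2 CPM in adenoma against 118.1 ± 22.1 CPM (SD, n = 3; log2 fold change 1.49, adjusted p = 0.000145), and at 283.7 ± 61.6 CPM after sulindac. Pgam1, phosphoglycerate mutase, rose from 768.2 ± 43.7 to 1360 ± 122.3 CPM (log2 fold change 0.83, adjusted p = 0.000693), though 36.2% of its stretches lie in a pseudogene. Eno2, the neuronal enolase, rose from 3 or 4 counts per library to 77, 172 and 181 counts, which is still at most 5.23 CPM (adjusted p = 2.48e-05). Eno3, the muscle enolase, was at 7.52 to 10.1 CPM in MIN and 12.8 to 17.6 CPM in adenoma, and its call (0.78, adjusted p = 0.00899) was lost without any 1 of MIN 1, MIN 2, Adenoma 1, Adenoma 2 and Adenoma 3 (adjusted p from 0.0129 to 0.0399).

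Lower in adenoma were Hkdc1 and Pfkm (above), Pklr and Adpgk. Pklr was at 426.9, 433.2 and 394.1 CPM in MIN and 117.8, 104.7 and 128.3 CPM in adenoma (log2 fold change -1.84, adjusted p = 3.74e-06). Of its stretches, 20.5% also lie in Hcn3. Adpgk, an ADP-dependent kinase of glucose, fell from 50.0 ± 2.15 to 32.2 ± 2.54 CPM (-0.63, adjusted p = 0.00111). The abundant enzymes Tpi1 (-0.15), Gapdh (-0.27), Pkm (-0.14) and Eno1 (-0.58, adjusted p = 0.0163) did not pass, nor did Pgam2 (-0.19) and Ldhd (0.12). The sums of Eno1 and of Eno1b, with which it shares 25.3% of its stretches, were 2331 to 2877 CPM in MIN and 1600 to 2231 CPM in adenoma. After sulindac, 1 of 13 tested genes of this list was lower than in adenoma and none was higher (2 with DESeq2). Over all genes, 9.10% were lower and 8.32% higher. The median log2 fold change of the list was 0.01. The lower gene was Eno3 (-1.57, adjusted p = 0.000489). Without Adenoma 1 the count of lower genes was 2, and without Adenoma 3 that of higher genes was 1. Gapdh (0.43, adjusted p = 0.0683) and Pkm (0.38, adjusted p = 0.0635) lay above adenoma in all 3 sulindac libraries without passing. Of their stretches, 25.1% and 25.8% also lie in transcripts of other genes. Against MIN, 3 of 14 were higher and 4 lower after sulindac (2 lower without Sulindac 3), where 23.0% and 26.8% of all genes were. There Pgam1 was higher by 1.17 (adjusted p = 2.34e-05) and Pklr was at -2.33 (adjusted p = 6.58e-07) on the log2 scale.

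Of the 5 genes that set the level of fructose 2,6-bisphosphate, an activator of phosphofructokinase, 1 was lower in adenoma than MIN and 2 were higher after sulindac. Over all genes, 20.1% were lower in the first comparison and 8.32% higher in the second. Pfkfb4 was lower in adenoma, at 5.13 ± 0.593 CPM against 37.4 ± 5.42 CPM (log2 fold change -2.86, adjusted p = 1.86e-06). Pfkfb2 rose after sulindac from 70.1 ± 5.52 to 121.4 ± 20.7 CPM (0.80, adjusted p = 0.00391, lost without Adenoma 2, Sulindac 1 or Sulindac 3 with adjusted p from 0.0108 to 0.0162). Tigar (9630033F20Rik in the table) rose from 23.9 ± 3.99 to 36.6 ± 1.00 CPM (0.62, adjusted p = 0.00804), a call lost without Adenoma 2, Adenoma 3, Sulindac 1, Sulindac 2 or Sulindac 3 (adjusted p from 0.0102 to 0.0308). With Adenoma 2, Sulindac 1 or Sulindac 3 left out, the count of 2 was 0.

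Entry of pyruvate into the mitochondrion and its dehydrogenase complex, 13 genes with 12 tested, held 6 lower genes and none higher in adenoma than MIN. The median log2 fold change was -0.61. Over all genes, 20.1% were lower and 18.5% higher. With each library left out the count of lower genes in this list was 4 to 6. Pdhx (-0.85), Mpc2 (-0.75), Pdha1 (-0.73) and Dld (-0.72) had adjusted p of 0.000423, 0.00802, 0.00129 and 0.000291, of which the call of Mpc2 was lost without MIN 1, MIN 2, MIN 3, Adenoma 1 or Adenoma 2 (adjusted p from 0.015 to 0.0296). Pdha1, the catalytic subunit that Pdk1 phosphorylates, fell from 442.1 ± 24.2 to 266.9 ± 34.0 CPM and was at 384.3 ± 22.6 CPM after sulindac. Its rise over adenoma (0.53, adjusted p = 0.00874) was the 1 call upward in that comparison, and Pdk3 the 1 downward, against 8.32% and 9.10% of all genes. The Pdha1 call was lost without Adenoma 2, Adenoma 3, Sulindac 1, Sulindac 2 or Sulindac 3 (adjusted p from 0.0111 to 0.0365), with library size alone (0.37, adjusted p = 0.0375) and with at least 10 counts in every sample (adjusted p = 0.0104).

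Gluconeogenesis, the reverse route to glucose, held 5 lower genes and 1 higher of 7 in adenoma over MIN, where 20.1% and 18.5% of all genes were. The median was -2.59, which stays the same with the 2 genes at 0 counts set to their bounds. Fbp1, fructose bisphosphatase, fell from 59.6 ± 4.01 CPM to 4 to 8 counts per library (-8.51, adjusted p = 3.26e-08), and Fbp2 from 147.1 ± 13.6 to 24.5 ± 8.02 CPM (-2.59, adjusted p = 2.82e-05). G6pc and Pck1 had no count in any adenoma library, and against the floor of 3 counts per library were at least 54.8-fold and 7.22-fold lower than in MIN. The G6pc level in MIN rests on MIN 1 and MIN 2 (8.32 and 5.30 CPM, against 0.627 in MIN 3), and its call was lost without Adenoma 1 or Adenoma 3 (adjusted p = 0.0103 and 0.0178). After sulindac, 3 of 4 tested genes were higher than in adenoma, against 8.32% of all genes, with a median of 0.91. Among the 3 was Fbp2 at 74.2 ± 10.9 CPM (1.61, adjusted p = 0.00157).

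The pentose phosphate pathway, which draws glucose 6-phosphate off for NADPH and ribose, held 3 genes, Pgd, Tkt and Taldo1, that were lower in adenoma than MIN and higher after sulindac than in adenoma, in comparisons that share the adenoma libraries. In adenoma over MIN, 4 of its 8 genes were lower and none higher, against 20.1% and 18.5% of all genes. In sulindac over adenoma 4 were higher and none lower, against 8.32% and 9.10%. The medians were -0.36 and 0.74. Pgd, the second NADPH-producing enzyme of the pathway, was at 538.3, 492.6 and 318 CPM in MIN, 253.7, 126.7 and 206.3 CPM in adenoma and 1513, 1184 and 1099 CPM after sulindac. On the log2 scale it changed by -1.20 (adjusted p = 0.00584) and then by 2.70 (adjusted p = 0.000288). Tkt (-0.72 and 1.33) and Taldo1 (-0.65 and 1.41), the enzymes that return pentose carbon to glycolysis, passed in both, and Rpia (-1.35) passed in the first. G6pdx, the first enzyme of the pathway, is added here although its values were seen first. It was at 156.8 ± 14.9 CPM in adenoma and 341.9 ± 25.9 CPM after sulindac (1.13, adjusted p = 0.000339). The calls after sulindac held with each library left out (4 or 5 genes). The lower calls in adenoma were fewer without MIN 1 (2), MIN 2 (1) or Adenoma 2 (1), as those of Pgd, Tkt and Taldo1 were lost with single libraries left out (adjusted p from 0.0108 to 0.0287). Taldo1 also failed in the blocked fit, in which same-numbered MIN and adenoma libraries are paired (adjusted p = 0.0119).

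Of 8 genes of glucose entry and lactate exit, 7 were tested, and 4 were lower and 1 higher in adenoma than MIN. Over all genes, 20.1% were lower and 18.5% higher. The median of the list was -0.71. The intestinal glucose carriers Slc5a1 (SGLT1) and Slc2a2 (GLUT2) fell from 658.8 ± 51.9 to 13.5 ± 3.37 CPM and from 29.7 ± 6.32 to 0.755 ± 0.13 CPM, that is by -5.60 (adjusted p = 1.99e-07) and -5.29 (adjusted p = 5.39e-07) on the log2 scale. Slc16a1 (MCT1), a lactate carrier, fell by 1.13 (adjusted p = 8.13e-05), while Bsg, its chaperone at the membrane, rose by 1.17 (adjusted p = 0.00357, lost without MIN 1, MIN 2 or Adenoma 3 with adjusted p from 0.0117 to 0.0184). Against 8.32% of all genes, 2 of the 7 genes were higher after sulindac than in adenoma. They were Slc16a1 (0.57, adjusted p = 0.00631, lost without Adenoma 2, Sulindac 1, Sulindac 2 or Sulindac 3 with adjusted p from 0.0175 to 0.0287, which left 1 gene) and Slc2a1 (GLUT1), the basal glucose carrier, named after its values were seen. Slc2a1 was at 169.8, 147.1 and 205.1 CPM in MIN, 170.1, 163.7 and 188.9 CPM in adenoma and 369.8, 308 and 305 CPM after sulindac. Its log2 fold change was 0.00 in adenoma over MIN (adjusted p = 0.982) and 0.92 in sulindac over adenoma (adjusted p = 0.000827).

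Since many of the 9 genes are known HIF targets, HIF factors and 21 HIF genes outside glycolysis in all were read beside them. In adenoma over MIN, 5 were higher and 3 lower (median 0.13), where 18.5% and 20.1% of all genes were, and the higher count was 2 without MIN 1 or MIN 2 and 3 without Adenoma 1 or Adenoma 3. Bnip3 (1.45, adjusted p = 4.9e-05) and Mxi1 (1.04, adjusted p = 3.29e-05) rose, and Adm (-1.98, adjusted p = 0.000781) and Ndrg1 (-1.39, adjusted p = 4.34e-05) fell. Epas1 (HIF-2 alpha), named after its values were seen, was lower in adenoma (-0.81, adjusted p = 0.00979), but the call was lost in the blocked fit (adjusted p = 0.0122) and without MIN 2, MIN 3, Adenoma 1, Adenoma 2 or Adenoma 3 (adjusted p from 0.0132 to 0.0336). Hif1a itself, also named after its values were seen, did not pass (-0.33, adjusted p = 0.126). In sulindac over adenoma 4 were higher and none lower (median 0.33), against 8.32% and 9.10% of all genes, and the count was 10 without Adenoma 3, 2 without Sulindac 3 and 1 without any other single library. Epas1 (0.95, adjusted p = 0.00163, held with each library left out), Adm (1.43, adjusted p = 0.00565) and Ndrg1 (0.51, adjusted p = 0.00789) were among the 4, and the calls of Adm and Ndrg1 were lost without Adenoma 1, Adenoma 2, Sulindac 1, Sulindac 2 or Sulindac 3 (adjusted p from 0.014 to 0.0328). In sulindac over MIN, 11 of the 21 were higher and 2 lower, against 23.0% and 26.8% of all genes. The median was 0.50 against -0.03 over all genes. With each library left out, 10 to 12 were higher and 1 (without Sulindac 2) or 2 lower. The 11 include Arnt, Vhl, Egln2, Egln3 and Hif1an, which belong to the HIF pathway itself. The others were Bnip3, Mxi1, P4ha1, P4ha2, Hilpda and Ddit4, and Ndrg1 and Ankrd37 were lower. The Ddit4 call was lost without MIN 1, MIN 2, Sulindac 1, Sulindac 2 or Sulindac 3 (adjusted p from 0.0106 to 0.0227). Vegfa (0.78, adjusted p = 0.0135) and Car9 (-0.41, adjusted p = 0.0226) did not pass. Genes of this comparison are named after their values were seen.

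**Figure D4:**
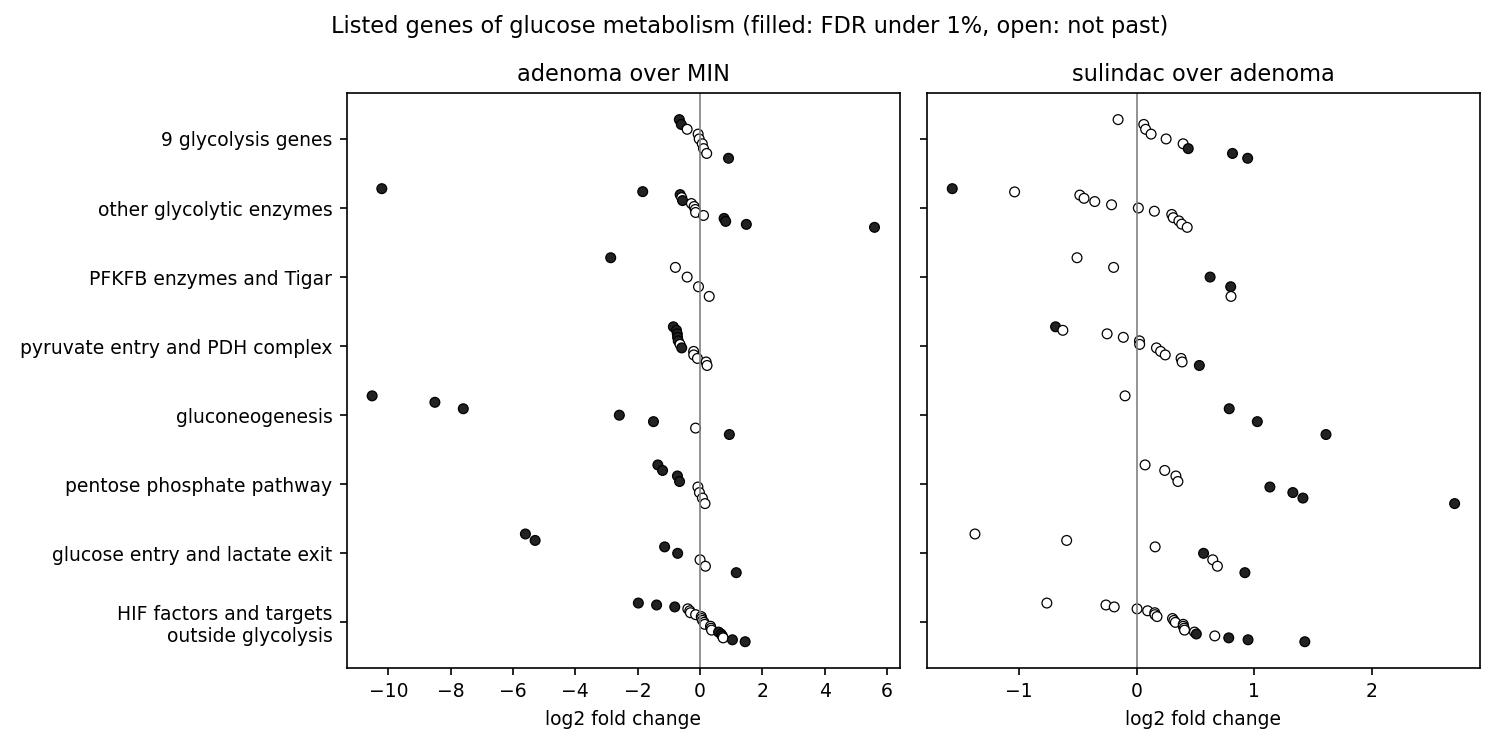
Log2 fold change (horizontal axis, different ranges in the 2 panels) of each tested gene of the 9 glycolysis genes and 7 further lists (rows), adenoma over MIN on the left and sulindac over adenoma on the right, with filled points for genes past an FDR of 1%. The farthest points left of 0 in the first panel are G6pc, Hkdc1 and Fbp1, and the farthest point right of 0 in the second is Pgd at 2.70.

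Across the 9 libraries, the genes most like each member were found by Pearson's r of log2(CPM + 0.5) among 9536 genes with a mean of at least 10 CPM, as a description, since the libraries fall into 3 groups and share their scaling. Hk1 was most like Ttc7b (r = 0.994) and Tmem63b (0.993), Aldoa like Rit1 (0.992) and Rap1a (0.989), Pgk1 like Spryd3 (0.989) and Akr1b8 (0.966), and Ldha like Mrpl12 (0.988) and Tomm5 (0.985). Pfkp was most like Lamb3 (0.984) and Btc (0.98), Pdk1 like Trub2 (0.983) and Ampd2 (0.982), Gpi1 like Trip10 (0.959) and Mrpl17 (0.954), and Hk2 like Leprotl1 (0.953). Pfkl, the most even gene, had the weakest neighbours, Psmc4 (0.919) and Nelfe (0.857). Among the 9 genes themselves, r was 0.936 for Aldoa and Pgk1, 0.92 for Hk1 and Aldoa, and 0.826 for Ldha and Pdk1, which were both lower outside MIN, and -0.873 for Hk1 and Pdk1.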

How the data were processed

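The authors deposited 1 table of raw counts of reads per gene symbol. The submitters' processing notes name RSEM, Bowtie2 2.2.4 and mm9 without their roles. Strand setting and annotation are not given in the sources used here. Groups and replicate numbers came from sample titles, and columns were matched by name. MIN 1 was given as 3 columns of the same name, the third being the sum of the other 2 over all 23955 genes. What the first 2 columns stand for is not labelled. They differed at a chi-square of 1.19 per gene, where replicates differed at 17.7 to 77.8. The third column was used as 1 sample. In 27 rows the symbol had become a date, and these rows were kept unnamed.

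Counts were filtered with filterByExpr, TMM-normalized and compared over all genes with edgeR 4.0.16 (glmQLFit, robust, glmQLFTest) in R 4.3.3, fitting the groups compared, with Benjamini-Hochberg adjustment at an FDR of 1%. Ratios between isozymes were log2((count + 0.5)/(count + 0.5)), compared by two-sided exact permutation tests (scipy 1.17.1). The procedure was tested on simulated counts of 13744 genes for adenoma over MIN, where 110 of 200 genes changed 2-fold were recovered (55%) with 2 false calls. The samples are labelled biological replicates, but separate mice are not stated, so p-values measure the spread between these samples. Depth was 30881206 to 48412477 counts per sample.

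Same-numbered MIN and adenoma libraries deviated together from their group means, with correlations across genes of 0.126, 0.113 and 0.192. The numbers were therefore taken to pair them, on the data alone. Different-numbered libraries correlated at 0.053 (Adenoma 1 and MIN 2) and 0.068 (Adenoma 2 and MIN 1). Those that matched replicate 3 with another lay at -0.149 to -0.122. These values set replicate 3 apart more clearly than they pair replicates 1 and 2. The main adjusted p-values come from the fit without this pairing. With the replicate number as a block, 1 of the 9 genes was higher and 2 were lower, as without it.

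The 9 genes and all lists were chosen with earlier results of these data known. Named beyond the 9 were all tested genes of other glycolytic enzymes, the Pdk genes and, per further list, up to 4 called genes with the largest change. Some genes of these lists and rankings, and 1 planned isozyme ratio, are not reported here. Genes outside this rule are marked where they appear. Alternatives were an FDR of 5%, a minimum of 2-fold, RLE size factors, scaling by library size alone, dropping the filter or raising it to 10 counts per sample, fitting all 9 samples together, the replicate block, DESeq2 1.42.0, leaving out each sample, and a pseudocount of 5. Shares per kb, and the alternatives for lists and other genes, were added after the data were seen. Lengths and the share of 50-base stretches that also occur in other genes' transcripts came from GENCODE M21. Promoter windows came from RefSeq (GRCm38.p6) and matched all 9 symbols.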

Additional observations from a re-analysis of the deposited data

How the results depend on the processing

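Hk1 kept its direction and its side of the threshold in every alternative fit of all 3 comparisons, as did Aldoa and Pdk1 in sulindac over MIN. Over the members' log2 fold changes, 302 values under an alternative kept direction and side of the threshold, 28 lost the call, 7 gained it and 14 turned sign, none of the last in a comparison in which the gene passed. Turned values were 0.072 for Pfkl and 0.11 for Pgk1 in adenoma over MIN, -0.10 for Gpi1, -0.090 for Pfkl and -0.042 for Ldha in sulindac over adenoma, and -0.018 for Pfkl in sulindac over MIN, all with library size alone. The last was -0.0016 without the low-count filter and -0.026 with at least 10 counts in every sample. With single libraries left out, adenoma over MIN ranged from -0.049 to 0.14 for Gpi1 and from -0.10 to 0.076 for Pgk1, and sulindac over MIN from -0.035 to 0.073 for Pfkl.

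At a minimum of 2-fold, no member passed in adenoma over MIN (0 higher, 0 lower) or sulindac over adenoma (0 higher), and 0 were lower in sulindac over MIN. With library size alone 1 member was lower in adenoma over MIN. With single libraries left out, 0 to 1 members were lower in adenoma over MIN, 1 to 4 were higher in sulindac over adenoma, and 2 to 4 were higher and 1 to 2 lower in sulindac over MIN. At an FDR of 5%, 4 were higher in sulindac over MIN. In sulindac over adenoma, Pfkp was also lost with at least 10 counts in every sample (adjusted p = 0.0106) and in the fit of all 9 libraries (adjusted p = 0.0217). Over all genes, that comparison gave 2034 higher and 2374 lower at an FDR of 5%, 365 and 703 at 2-fold, 603 and 1983 with library size alone and 1775 higher with DESeq2. With each library left out the ranges were 423 to 1403 higher and 386 to 1488 lower, and without Adenoma 2, Sulindac 1, Sulindac 2 or Sulindac 3 they were 576, 489, 608 and 423 higher and 622, 492, 631 and 386 lower. Sulindac over MIN gave 1501 higher and 2104 lower at 2-fold, and 3998 higher at an FDR of 5%. With each library left out it gave 2430 to 3405 higher and 2912 to 3910 lower. Adenoma over MIN gave 1715 higher and 1862 lower at 2-fold and 2282 lower with library size alone. With each library left out it gave 2238 to 2762 lower, against 2765 with all libraries.

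Among the isozyme ratios, the sulindac over adenoma difference of Pdk4 to Pdk1 turned to 0.065 with a pseudocount of 5 and ranged from -1.21 to 0.36 with libraries left out. Ldhb to Ldha ranged from -0.57 to 0.63. Pfkp to Pfkl in sulindac over MIN ranged from -0.28 to 0.014. These ratios rest on low counts or overlapping groups, and none was called.

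In sulindac over adenoma, same-numbered libraries correlated at 0.253, 0.208 and -0.074, and in sulindac over MIN at -0.03, 0.396 and 0.252. Not all of these values were positive, and the numbers were not taken to pair these libraries. Whether the libraries share a source cannot be settled from such values. With the replicate number as a block, 1 member was higher in sulindac over adenoma (Hk1), since Pfkp (adjusted p = 0.023) and Aldoa (adjusted p = 0.0147) did not pass, and 2 were higher and 2 lower in sulindac over MIN. Of the other named genes in sulindac over adenoma, the block ended the calls of Pfkfb2 (adjusted p = 0.0101), Tigar (0.0103), Pdha1 (0.0202), Slc16a1 (0.0103) and Ndrg1 (0.0194). The block changed no call of a member in adenoma over MIN.

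For other named genes, library size alone ended the calls of Pfkm (adjusted p = 0.0108), Mpc2 (0.0117), Pgd (0.011), Taldo1 (0.0102) and Epas1 (0.0182) in adenoma over MIN, and of Pfkfb2 (0.0134), Tigar (0.0327), Pdha1 (0.0375), Slc16a1 (0.0277) and Ndrg1 (0.0249) in sulindac over adenoma. At least 10 counts in every sample ended those of Eno3 (0.0101) and Epas1 (0.0108) in the first and of Pdha1 (0.0104) and Ndrg1 (0.01) in the second, and dropping the filter ended those of G6pc (0.0304) and Pgd (0.01) in the first.

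With 3 libraries a group, calls under 2-fold were often lost with 1 library left out. Calls over all genes were mostly fewer in those fits too. For genes under about 10 counts per library, depth limits what can be compared.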
